A study of Mus musculus with 3 samples.

Results

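Cluster 0 was the largest group of inhibitory neuron nuclei in a single-nucleus RNA sequencing data set of the mouse olfactory bulb, and its label names the genes Adamts19, Myo3b, Sema3c and Tacr1. Its members were all nuclei that carry cluster number 0 in the deposited annotation, with no further selection, and they numbered 7681 of 31703 annotated nuclei. Mouse 1 gave 1301 of them, mouse 2 gave 5438 and mouse 3 gave 942. They were described against the 13064 nuclei of the other 7 inhibitory clusters, numbered 1, 3, 6, 7, 8, 10 and 12. The nuclei came from the olfactory bulbs of 3 adult male C57Bl/6 mice, 1 library per mouse, and all 3 animals had received the same treatment. A retrogradely transported virus, retroAAV-CAG-H2B-GFP, which marks nuclei with GFP from the broadly active CAG promoter, had been placed in the piriform cortex and the anterior olfactory nucleus, and bulb nuclei were then sorted. The labelling was aimed at cells that send axons to these areas, and the study names stray labelling of interneurons as possible, so the interneuron nuclei are those that passed the sort and not a census of the bulb. There was no untreated group and no second condition, so every comparison below is between clusters within the same mice.

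Inhibitory interneurons of the olfactory bulb release GABA and shape the output of the mitral and tufted cells. Granule cells, the most numerous, have no axon and act through synapses between their dendrites and those of the projection neurons, while periglomerular cells surround the glomeruli and include dopaminergic, calretinin and calbindin types. Of the label genes, Adamts19 encodes a secreted metalloprotease, Sema3c a secreted semaphorin that guides axons and migrating cells, Myo3b an unconventional myosin with a kinase domain, and Tacr1 the receptor for the tachykinin substance P. In the annotation of build GRCm38, Sema3c lies at chr5:17574281-17730268, Myo3b at chr2:70039126-70429198 and Tacr1 at chr6:82402334-82560104, all protein coding and on the plus strand.

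More than any other inhibitory cluster, cluster 0 held on average 36.0% ± 1.60 (SD, n = 3 mice) of the inhibitory nuclei. The share was 35.3% in mouse 1, with a Clopper-Pearson 95% interval from 33.8% to 36.9%. It was 37.9% (interval from 37.1% to 38.7%) for mouse 2 and 34.9% (from 33.1% to 36.7%) for mouse 3, and these intervals cover counting error only. The next largest inhibitory cluster, cluster 1, held 21.8% ± 1.95 and cluster 3 held 11.4% ± 0.664. Of all annotated nuclei, cluster 0 was 22.6% ± 2.99. The sort can set these shares, so they describe the sorted nuclei.

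The summed depth of cluster 0 was 9593947 unique molecular identifiers (UMIs, each marking 1 captured transcript) in mouse 1, 44969722 in mouse 2 and 9118404 in mouse 3. The median nucleus held between 6920 and 9001 UMIs and between 2494 and 2716.5 genes, depending on the mouse. Cluster 7 was shallower, at medians of 3757 to 5062 UMIs, and cluster 3 deeper, at 8928 to 12482. Between 8 and 39 barcodes were shared by a pair of mice, and at most 6 of those lay in the same cluster in both.

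Genes of inhibitory neurons were high in cluster 0 of all 3 mice. Gad1, which encodes a GABA-synthesizing enzyme, had 1233, 996 and 908.7 counts per 1000000 UMIs (CPM) in the summed nuclei of mice 1, 2 and 3, and a UMI of it was found in 98.3% of the nuclei. In the cluster with the highest microglia markers, whose 146 nuclei should lack Gad1, 55.5% had a UMI, at a median depth of 3405 UMIs against 7563 in cluster 0. A UMI in a nucleus is therefore not by itself a sign of expression. For Gad1, Scgn and the label genes, the shares of nuclei with a UMI at full depth are given beside those of the microglia-like nuclei. Slc32a1, the vesicular GABA transporter, had 280.5, 233.8 and 217.7 CPM. The 9 listed projection neuron markers summed to 96.0 to 127 CPM in cluster 0, within the 90.2 to 599 CPM of the other inhibitory clusters. Summed glial levels lay inside the range of the other clusters for astrocytes (496 to 540 CPM against 133 to 883), oligodendrocytes (39.9 to 82.3 against 33.2 to 152) and ensheathing glia (80.9 to 140 against 31.0 to 785), and no gene of these lists, nor of the microglia, oligodendrocyte precursor and vascular lists, was called by the rule given below, which called 0.999% of all tested genes higher and 2.87% lower. Of the immature neuron markers 1 of 9 tested, Cd24a, was lower, and none of the 6 markers of external plexiform layer interneurons was called.

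Calls among the markers of bulb interneuron classes did not single out 1 class. Of the 10 granule cell markers, Penk and Pcp4 were higher in cluster 0 and Rprm was lower, beside 0.999% higher and 2.87% lower among all tested genes, and the list's median log2 difference from the other inhibitory clusters was 0.51. Pcp4, a small calmodulin regulator, had 1302, 1040 and 483.5 CPM, the highest mean of the 8 clusters although mouse 3 lay within the range of the others, and Meis2, a homeobox factor of bulb interneurons, had 3673, 3631 and 3956 CPM beside 2261 to 4557 CPM in the others. Of the 8 periglomerular markers only Calb2, the calretinin gene, was higher, against the same 0.999%, and the list's median was -0.42. By direction alone, 80% of the granule cell markers were above 0 in 3 of 3 mice. The share was 25% for the periglomerular markers, 16.7% for those of external plexiform layer interneurons and 32% for all tested genes. The dopaminergic markers Slc6a3 and Ddc were near 0, at no more than 0.156 and 1.02 CPM in any mouse. Th, the gene of tyrosine hydroxylase, was at 55.35, 47.77 and 43.98 CPM, second to cluster 6 at 222 CPM, and above 0 in 3 of 3 mice without being called (1.00 ± 0.29). Cluster 0 is therefore called here by its number and its label genes.

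The label genes did not mark cluster 0 alone: each was shared with 1 of the clusters nearest to it. Adamts19 and Tacr1 were shared with cluster 1, and Sema3c and Myo3b with cluster 3. These genes come with the cluster's label, and clusters were formed on the same counts, so their levels are a description with no test.

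Adamts19 had 351.8, 532.6 and 545.9 CPM in cluster 0 of mice 1, 2 and 3, 477 ± 108 (SD, n = 3), the highest mean of all 22 clusters. Cluster 1 followed at 324 ± 84.4 CPM, and the lowest cluster 0 library fell below the highest cluster 1 library (384.4 CPM), although cluster 0 was higher within each mouse. No other inhibitory cluster averaged over 90.1 CPM. Tacr1 had 57.54, 77.07 and 68.21 CPM, which overlapped the 74.3 ± 22.8 CPM of cluster 1 and lay above the 29.9 ± 6.58 CPM of cluster 3.

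Sema3c had 322.2, 285.7 and 308.7 CPM in cluster 0, below the 403 ± 56.7 CPM of cluster 3 without overlap, while cluster 1 was at 44.1 ± 4.01 CPM. Myo3b had 111.3, 140.2 and 181.8 CPM, overlapping the 112 ± 46.9 CPM of cluster 3 and far from the 19.1 ± 2.15 CPM of cluster 1. Cluster 0 was thus the cluster in which all 4 label genes were high at once. Outside the inhibitory clusters, Sema3c was highest in cluster 18, at 166 ± 70.3 CPM.

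**Figure D1:**
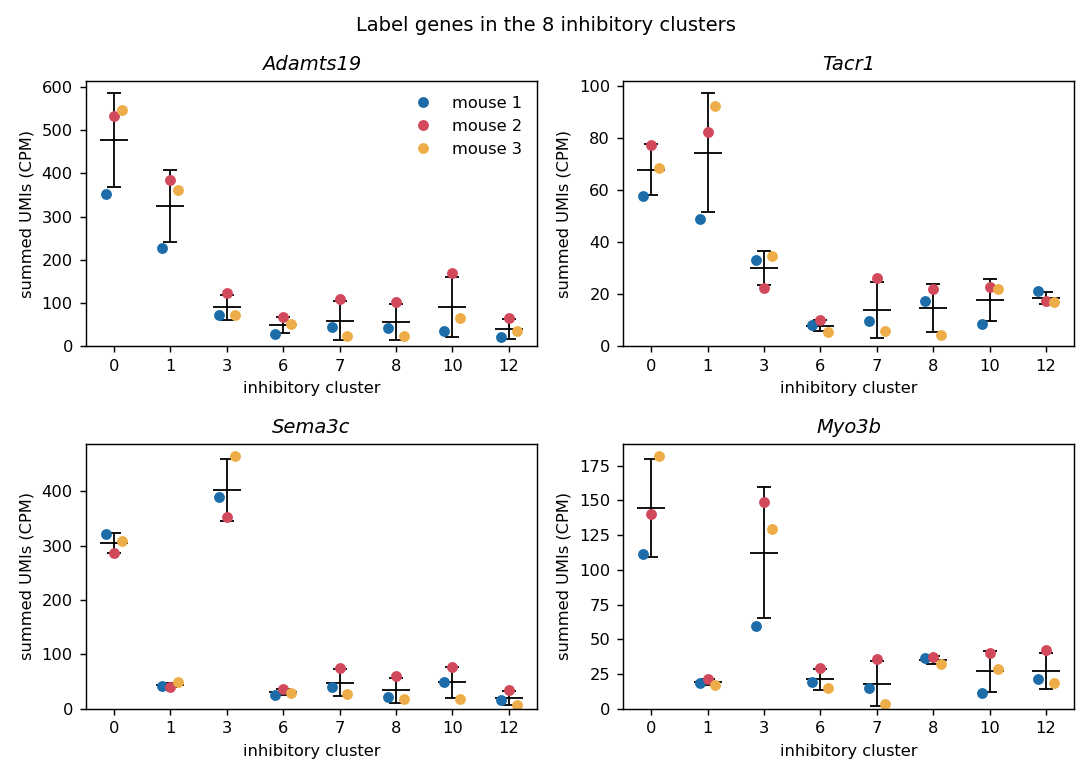
CPM of the summed nuclei (y axis, linear) of the 4 label genes in the 8 inhibitory clusters (x axis), with 1 point per mouse, the mean as a line and the SD as bars. Adamts19 and Tacr1 are high in clusters 0 and 1, Sema3c and Myo3b in clusters 0 and 3.

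Shares of nuclei at equal depth also set clusters 0 and 1 apart in Sema3c and Myo3b, and clusters 0 and 3 in Adamts19 and Tacr1. With every nucleus thinned to 3000 UMIs, Adamts19 was found in 54.4% ± 7.36 of cluster 0 nuclei, against 43.0% ± 7.29 in cluster 1 and 14.6% ± 4.56 in cluster 3. Sema3c was found in 42.4% ± 2.38, against 7.39% ± 0.272 in cluster 1 and 38.4% ± 3.86 in cluster 3, an order of clusters 0 and 3 opposite to that of the CPM, so none is read from it. For Myo3b the shares were 16.6% to 24.3% over the mice in cluster 0, on average 3.94% ± 0.669 in cluster 1 and 19.3% ± 5.70 in cluster 3, and for Tacr1 14.4% ± 1.68 in cluster 0, 10.7% to 18.3% in cluster 1 and 5.49% ± 1.01 in cluster 3. Thinning left out 36, 84 and 9 cluster 0 nuclei of mice 1, 2 and 3. At full depth, Adamts19 was found in 70.5% of cluster 0 and 10.3% of the microglia-like nuclei, Sema3c in 55.9% and 13.0%, Myo3b in 34.3% and 6.85%, and Tacr1 in 26.9% and 4.11%.

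Nuclei with several label genes were most frequent in cluster 0. After thinning, 31.0% ± 2.95 of its nuclei held UMIs of 2 label genes, 9.95% ± 1.04 of 3 and 1.19% ± 0.625 of all 4, while 22.4% ± 3.49 held none. In cluster 1, 45.8% ± 7.77 held none and 1.10% ± 0.653 held 3, and in cluster 3, 44.4% ± 1.40 held none and 3.07% ± 0.739 held 3. In the other 5 inhibitory clusters between 78.0% and 85.1% held none. Within cluster 0 the label genes were only weakly tied to each other: the correlation of Sema3c with Adamts19 UMIs across thinned nuclei was 0.0927, 0.0766 and 0.0621 in mice 1, 2 and 3, in sparse counts.

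**Figure D2:**
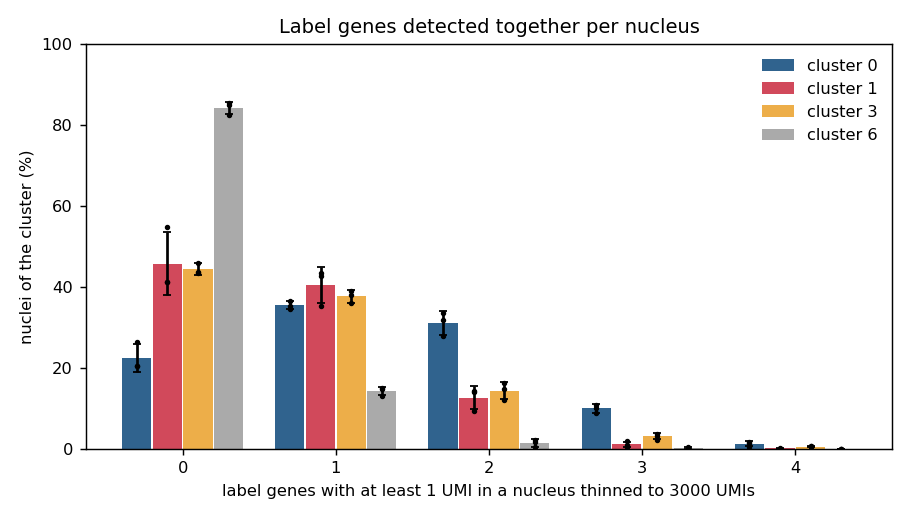
Percent of nuclei (y axis) by the number of label genes with at least 1 UMI after thinning to 3000 UMIs (x axis), in clusters 0, 1, 3 and 6; bars are means over 3 mice with the SD, and dots are mice. Cluster 0 has the lowest share without any label gene, 22.4%, and the highest shares with 2, 3 and 4.

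Over all genes, cluster 0 had more lower than higher genes, and fewer higher genes than any other inhibitory cluster. For each mouse, log2(CPM + 1) of the other 7 clusters was averaged and subtracted from that of cluster 0, and a gene was called higher or lower where the difference was past 1 or -1 in 3 of 3 mice. This scale understates the change of genes with few UMIs. Of 13419 genes with a mean of at least 2 CPM, 134 were higher, 0.999% of those tested, and 385 were lower, 2.87%. Because the clusters were defined on these counts, no p-value is given. With the same rule the other clusters had between 234 (cluster 3) and 558 (cluster 6) higher genes and between 103 (cluster 8) and 679 (cluster 3) lower genes. All 3 cluster 0 libraries lay above the 21 libraries of the other clusters for 56 genes, 0.417%, and below them for 51, 0.38%.

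The differences were smallest in mouse 2, and this library limited the count. Without mouse 2, 299 genes were higher and 487 lower. In mouse 2, 149 genes were past 1, against 424 in mouse 1 and 440 in mouse 3. Mouse 2 had the most nuclei and UMIs, and 67.0% of its 103 microglia-like nuclei had a UMI of Gad1, against 21.1% of 19 in mouse 1 and 33.3% of 24 in mouse 3. The part of these values in the smaller differences was not tested. The count of higher genes also fell to 38 where all nuclei of the 7 clusters were summed, which weights the reference towards the clusters with the most nuclei.

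The genes higher in cluster 0 were largely shared with clusters 3 and 1. Of the 134, 76 had their highest mean in cluster 0, beside 1168 of 13419 tested genes, and the call itself favours a high rank. The highest of the other clusters was cluster 3 for 65 and cluster 1 for 43, which was not counted over all tested genes. Across all tested genes the profile of cluster 0 was most like cluster 3 (Pearson r of mean log2(CPM + 1) over genes 0.977) and cluster 1 (0.965), then cluster 12 (0.933), and least like cluster 8 (0.894). Between mice, cluster 0 correlated at 0.979 to 0.991. These r values are across genes, which are not independent, and the clusters share libraries. Only 4 of the 134 genes were also past the rule against cluster 1 and cluster 3 taken singly: Scgn, Gpc3, Matn2 and Calb2, which were picked out after their values were seen.

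Among the higher genes with at least 20 CPM that lay above every other library, Scgn had the largest difference. Scgn encodes secretagogin, an EF-hand calcium sensor found in bulb interneurons (GRCm38 chr13:23953456-23991214, minus strand). It had 52.22, 59.97 and 50.78 CPM in cluster 0, above the 2.24 to 45.1 CPM of the others, and its log2 difference was 2.14 ± 0.19. Clusters 6 and 7 came next, at 34.4 ± 2.80 and 34.1 ± 9.51 CPM, while clusters 1 and 3, the most alike over all genes, were at 7.79 ± 3.31 and 9.13 ± 4.53 CPM. Its level was uneven within cluster 0: in the nuclei without Calb2, described below, it was 27.7 to 34.5 CPM, with a mean of 30.4 under those of clusters 6 and 7. At full depth a UMI of Scgn was found in 21.1% of cluster 0 nuclei and 2.74% of the microglia-like nuclei.

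Amigo2, a leucine-rich repeat adhesion protein, had 26.48, 21.53 and 21.71 CPM beside at most 17.0 CPM in any other library, a log2 difference of 2.08 ± 0.53. Gpc3, a glypican that binds growth factors through heparan sulfate, had 51.07, 59.40 and 76.11 CPM beside at most 48.2, a difference of 1.97 ± 0.80. Col6a1, a chain of collagen VI, had 46.07, 44.90 and 48.69 CPM, and the difference, 1.84 ± 0.12, varied least among the 15 genes. For these 3 genes, as for all 15, the libraries of the other clusters stayed below all of cluster 0. Icam5, telencephalin, an adhesion protein of dendrites, was higher by 1.38 ± 0.25, and Fjx1, a secreted homologue of the fly protein four-jointed, by 1.30 ± 0.21.

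Cpne6, a calcium-dependent phospholipid-binding copine of neurons, had 232.1, 189.5 and 212.1 CPM, and cluster 1 was next at 116 ± 48.8 CPM (difference from all 7 clusters 1.98 ± 0.25). St6galnac3, a sialyltransferase, had 886.5, 1013 and 966.0 CPM, just above the highest other library at 849 CPM. Slc9a9, an endosomal sodium-proton exchanger, had 579.6, 545.9 and 623.1 CPM, above at most 469 CPM elsewhere. Cluster 1 was the next highest for all 3 genes, with Slc9a9 lower there by only 0.37 ± 0.13 on the log2 scale while cluster 6 averaged 52.0 CPM.

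Egln3, an oxygen-sensing prolyl hydroxylase, had 32.62, 30.40 and 26.87 CPM, and cluster 3 was next at 22.4 ± 3.82 CPM. Kank3, which belongs to a family of regulators of the actin cytoskeleton, had 227.2, 199.8 and 217.3 CPM, and cluster 3 was next at 183 ± 14.2. Apc, a scaffold of the Wnt pathway that also binds microtubules, had 2073, 2145 and 2021 CPM beside 1836 ± 31.6 in cluster 3. Here the neighbour was cluster 3, and its libraries stayed below those of cluster 0. The remaining named genes were Gm13031 (1.48 ± 0.38), Fam131b (1.47 ± 0.17) and Junb (1.36 ± 0.31), described with the activity-induced genes. Gm13031, like Gm13629 and Gm4128 named below, is annotated as antisense. The use of strand is not stated in the sources used here, and whether reads of their partner genes contribute was not tested. Where all nuclei of the 7 clusters were summed, the mean differences of St6galnac3 (0.90), Slc9a9 (0.93), Icam5 (0.96), Apc (0.82) and Tacr1 (0.86) were under 1, and those of Kank3 (1.09), Gm13031 (1.14), Junb (1.17) and Fjx1 (1.01) stayed above 1 but no longer in 3 of 3 mice.

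The 10 named lower genes differed more than the 15 named higher ones, but the 2 sets were not picked alike. The lower ones were the most negative of 23 genes that met the rule for naming, while only 15 higher genes met it. Olfm3, a secreted olfactomedin of neurons (GRCm38 chr3:114904078-115125722, plus strand), had 3.75, 6.89 and 7.35 CPM in cluster 0, and every other inhibitory library had at least 19.1 CPM. Clusters 8 and 10 held 771 ± 243 and 812 ± 199 CPM, and the log2 difference was -4.00 ± 0.49. Olfm3 was also lower than in cluster 3 and in cluster 1 taken singly, with differences of -1.75 ± 0.63 and -3.13 ± 0.26.

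Plxna4, a plexin that takes part in semaphorin receptors, had 7.82, 8.98 and 5.26 CPM in cluster 0 and 912 ± 162 CPM in cluster 7, a difference from all 7 clusters of -3.49 ± 0.46. Il1rapl2, a synaptic adhesion protein of the interleukin-1 receptor family, had 19.60, 35.36 and 19.08 CPM, against 2514 ± 352 CPM in cluster 12 (difference -3.39 ± 0.53). Each library of cluster 0 was below each library of the other clusters, though for Il1rapl2 cluster 3 was close, at 41.1 ± 4.41 CPM.

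Among the other named lower genes were Pard3, a scaffold of cell polarity (7.06 ± 0.650 CPM, difference -2.73 ± 0.26), Zbtb16, a zinc finger transcription factor (7.42 ± 0.447 CPM, -2.53 ± 0.27), and Arhgap26, a GTPase-activating protein (12.7 ± 2.64 CPM, -2.50 ± 0.22). Sel1l3 (-3.47 ± 0.46), Plekha6 (-2.43 ± 0.22), Rbms1 (-2.37 ± 0.41) and Slc35f1 (-2.29 ± 0.31) completed the 10. Of all 385 lower genes, 139 had their lowest mean in cluster 0, beside 963 of 13419 tested genes, and the call itself favours a low rank. The cluster with the highest level was cluster 8 for 103, cluster 7 or cluster 10 for 84 each, cluster 6 for 74 and cluster 3 for none. This was not counted over all tested genes.

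**Figure D3:**
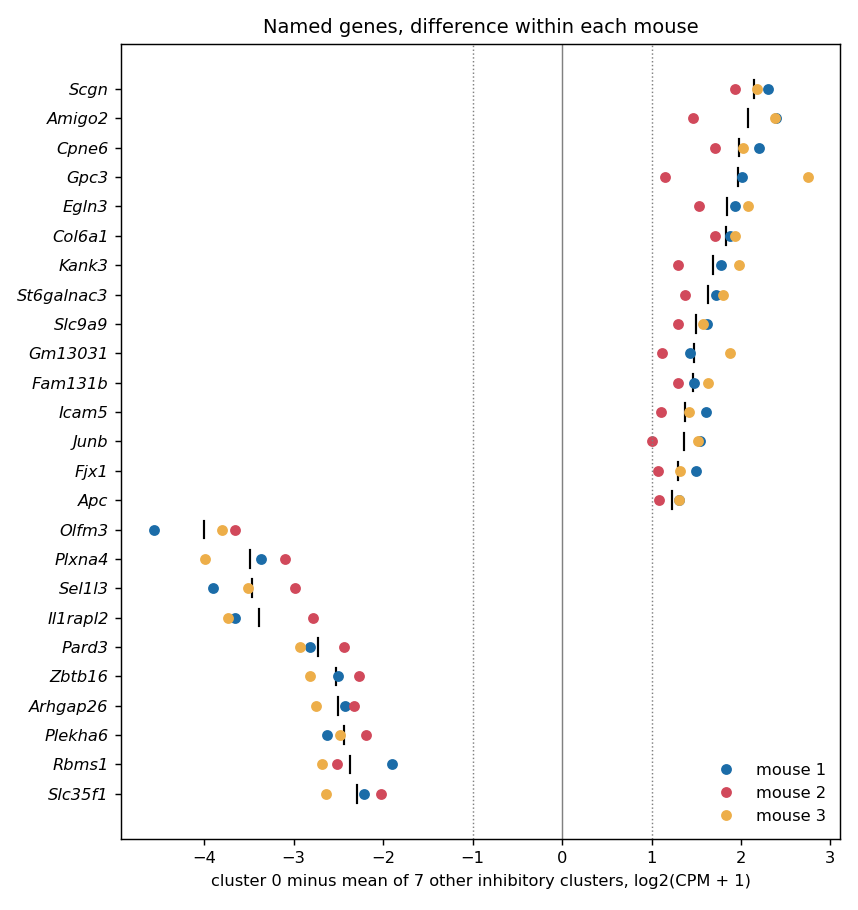
Log2(CPM + 1) of cluster 0 minus the mean of the 7 other inhibitory clusters (x axis) for the 15 higher and 10 lower named genes (y axis), with 1 point per mouse and the mean as a bar; dotted lines are at 1 and -1. Mouse 2 gives the smallest of the 3 differences for each of the 15 higher genes, and the lower genes reach a mean of -4.00.

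Against cluster 3, the cluster most like it, the largest difference was in a serotonin receptor gene. Of 12697 genes tested, 204 were higher in cluster 0 (1.61%) and 112 lower (0.882%). Htr1f, a serotonin receptor coupled to inhibitory G proteins, had 605 ± 69.6 CPM in cluster 0 and 40.4 ± 14.7 in cluster 3, a difference of 3.93 ± 0.40. Pde1a, a calmodulin-activated phosphodiesterase, had 79.0 ± 13.7 against 5.72 ± 1.63 CPM, and Fgf10, a growth factor, 50.0 ± 4.56 against 3.95 ± 1.84. The other 2 named were Mob3b (3.43 ± 0.56) and the long non-coding C130073E24Rik (3.42 ± 0.48).

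In the other direction, Met, the receptor for hepatocyte growth factor, had 7.81 ± 1.16 CPM in cluster 0 and 68.8 ± 5.37 in cluster 3. Tpbg, the 5T4 glycoprotein known from a subset of bulb granule cells, had 27.6 ± 5.85 against 221 ± 49.5 CPM, a difference of -2.96 ± 0.23. Thsd7b had 119 ± 9.96 against 838 ± 105 CPM. Fam129a (-2.85 ± 0.15) and the antisense Gm13629 (-2.84 ± 0.13) were the remaining pair. The libraries of clusters 0 and 3 did not overlap for these 10 genes, but they were picked for the largest differences. How many of all tested genes did not overlap was not counted.

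Against cluster 1, 142 of 12950 genes were higher in cluster 0 (1.1%) and 362 lower (2.8%). The higher genes began with Crhbp, the binding protein of corticotropin-releasing hormone, at 37.0 ± 8.56 against 4.10 ± 1.10 CPM, followed by Myo3b, Sema3c, Scgn and Gm4128. In cluster 3, Crhbp was higher, at 104 ± 41.4 CPM. The lower genes were led by March1, a membrane-bound ubiquitin ligase, at 18.6 ± 2.80 against 309 ± 124 CPM, and Klhl1, an actin-binding kelch protein, at 24.8 ± 2.46 against 376 ± 84.8 CPM. Ankfn1 (-3.59 ± 0.06), Vat1l (-3.53 ± 0.64) and Hs3st4, a heparan sulfate sulfotransferase (-3.47 ± 0.31), came next. The libraries of the 2 clusters did not overlap for any of the 10, which were again picked for the largest differences. The share over all tested genes was not counted.

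Gene groups around the label genes were then counted against the median over all tested genes, -0.02. The tachykinin group held no ligand to match the receptor: Tac1 had 1.36, 4.83 and 2.08 CPM and Tac2 no more than 2.11 CPM in cluster 0, and of 4 tested members only Tacr1 was higher. The substance P gene Tac1 was highest in cluster 1 among the inhibitory clusters. Of 18 tested neuropeptide receptors, 3 were higher and 1 lower, beside 0.999% and 2.87% of all tested genes, with a median of 0.31. Beside Tacr1, these were Oprd1, the delta opioid receptor (66.71, 49.63 and 48.14 CPM, difference 2.08 ± 0.50), and Vipr2, a receptor of vasoactive intestinal peptide (168.9, 207.6 and 203.2 CPM, 1.71 ± 0.39). Both had a higher mean in cluster 3 (79.0 and 267 CPM), and none of the 3 was past 1 in 3 of 3 mice where the nuclei of the 7 clusters were summed.

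Oprk1, the kappa opioid receptor, was at 0 CPM in 2 mice and at 0.0445 CPM in mouse 2, with a difference of -1.11 ± 0.12. It was also under 1 CPM on average in clusters 1, 3, 6, 10 and 12, and the difference came mainly from cluster 7, at 25.9 CPM. Of 12 tested neuropeptides, 1 was higher, beside 0.999% of all tested genes. This was Penk, the enkephalin precursor, at 261.0, 185.8 and 152.1 CPM and a difference of 1.63 ± 0.48, beside 211 CPM in cluster 1. The delta opioid receptor is a receptor of enkephalins, and the ligand gene was thus shared with cluster 1 and the receptor gene with cluster 3.

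The semaphorin genes and their receptors were counted apart. Of 4 tested class 3 semaphorins Sema3c was higher, and Sema3e, Sema3a and Sema3d were not called. Of 9 tested plexins and neuropilins none was higher and 3 were lower, with a median of -0.41, and 8 of the 9 were below 0 in 3 of 3 mice, beside 2.87% lower and 4832 of 13419 below 0 among all tested genes. Plxna2 had 25.02, 26.48 and 18.20 CPM (difference -1.67 ± 0.32) and Plxnc1 10.63, 8.72 and 9.10 CPM (-1.57 ± 0.13), beside Plxna4 above. The whole group summed to 80.7, 84.6 and 82.1 CPM in cluster 0. Only cluster 3, the other Sema3c cluster, was lower, at 68.2 ± 6.27 CPM, while clusters 1 and 7 were at 228 ± 30.4 and 1164 ± 192 CPM.

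Adamts19 was the 1 gene called among 12 tested ADAMTS proteases, beside 0.999% higher and 2.87% lower among all tested genes. Of 17 tested unconventional myosins, Myo3b and Myo16 were higher. Myo16, a myosin of neurons, had 1277, 1425 and 1415 CPM and a difference of 1.39 ± 0.33, with clusters 1, 3 and 12 close at 1337, 1209 and 1121 CPM. The medians of these groups, 0.11 and -0.14, were near that of all genes.

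Ion channels and transmitter receptors differed in a few members each. Of 32 tested voltage-gated potassium channel genes, Kcnb2, a delayed rectifier of the Kv2 family (5051, 6460 and 6264 CPM, difference 1.60 ± 0.35), Kcnq5, a subunit of M-type channels (1943, 1816 and 1953 CPM, 1.51 ± 0.35), and Kcnma1, the large-conductance calcium-activated channel (1272, 1215 and 1415 CPM, with differences of 1.19, 1.05 and 1.37 in the 3 mice), were higher. Kcnq3, a partner subunit of M-type channels, was lower, at 78.70, 73.32 and 53.74 CPM (-1.69 ± 0.33). Of the voltage-gated sodium channel genes, Scn9a had 1.25, 1.49 and 2.63 CPM and was lower (-2.16 ± 0.32). Among all tested genes 0.999% were higher and 2.87% lower. None of the potassium channel genes was called higher where the nuclei of the 7 clusters were summed, and 6 were without mouse 2.

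Among 16 tested acetylcholine and monoamine receptors 4 were lower and 1 higher, beside 2.87% and 0.999% of all tested genes, with a median of -0.82. Adra1a, an alpha-1 adrenergic receptor, had 249.0, 289.9 and 274.8 CPM and the highest mean of the 8 clusters (1.48 ± 0.33). Htr7 (-2.91 ± 0.37) and Htr2a (-1.97 ± 0.28), both serotonin receptors, the muscarinic receptor Chrm3 (-1.22 ± 0.14) and the dopamine receptor Drd2 (-1.17 ± 0.08) were lower. Of the ionotropic glutamate receptors, Grik1 (-1.96 ± 0.24), Grin2c (-1.60 ± 0.39) and Grik4 (-1.23 ± 0.13) were lower of 17, and Grm7 (-1.28 ± 0.04) was lower of 7 metabotropic receptors. None of 12 tested GABA-A receptor subunits was called.

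Within the GABA machinery, Gad1 (0.86 ± 0.20), Gad2 (0.71 ± 0.12) and Slc32a1 (0.32 ± 0.09) were above 0 in 3 of 3 mice without reaching the threshold.

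Synaptic adhesion genes and cadherins held more lower than higher genes, as did all tested genes (2.87% lower and 0.999% higher). Of 34 adhesion genes, Tenm2, a teneurin, was higher (1927, 2479 and 2334 CPM, 1.61 ± 0.14) and 6 were lower: Il1rapl2, the contactins Cntn3 (-2.64 ± 0.06), Cntn6 (-2.06 ± 0.25) and Cntn5 (-1.89 ± 0.29), and Cntnap5b (-1.70 ± 0.42) and Cntnap5a (-1.19 ± 0.19). Of 15 tested cadherins, Cdh6 (-1.96 ± 0.10), Cdh7 (-1.89 ± 0.10) and Cdh13 (-1.27 ± 0.05) were lower and none higher. The lists' medians were -0.16 and -0.45. Of 9 tested lecticans, link proteins, tenascins and related matrix genes, Ptprz1 was lower (-1.23 ± 0.13).

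Of 37 tested transcription factors of bulb interneurons, none was higher and 5 were lower, beside 0.999% and 2.87% of all tested genes, and the list's median was 0.12. They included the 3 nuclear factor I genes Nfix (-2.41 ± 0.10), Nfia (-1.75 ± 0.57) and Nfib. Nfib had 42.84, 37.38 and 38.49 CPM in cluster 0 beside up to 993 CPM in a library of another cluster, and was past -1 in 3 of 3 mice. Foxp2, a forkhead factor, had 8.23, 13.81 and 9.43 CPM (-2.21 ± 0.03), and Tshz2 had 15.74, 10.99 and 10.75 CPM (-1.06 ± 0.04), each the lowest mean of the 8 clusters, for Tshz2 just under the 12.6 CPM of cluster 12.

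Calcium-binding proteins were called in both directions, 3 higher and 2 lower of 14 tested, beside 0.999% and 2.87% of all tested genes, with a median of 0.15. Beside Pcp4 and Calb2, Necab3 was higher (103.4, 85.77 and 85.54 CPM, 1.36 ± 0.26). Cabp1 (-2.09 ± 0.37) and Ncald (-1.38 ± 0.18) were lower. Calb1, the calbindin gene of a periglomerular class, was at no more than 1.07 CPM.

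Genes that neurons switch on with activity were the group with the highest median among the functional lists, 1.16. Synaptic activity raises calcium and cyclic AMP in a neuron, and factors such as CREB then start the immediate early genes, among them the Fos and Jun partners of AP-1 and the Egr factors, and the synaptic gene Arc. Of the 12 listed, 4 were higher, Egr2, Arc, Fosb and Junb, and none lower, beside 0.999% higher and 2.87% lower among all tested genes. With a pseudocount of 5 CPM the count of higher genes was 0. The mean CPM was highest in cluster 0 among the 8 clusters for 9 of the 12, against 8.7% of all tested genes. Above 0 in 3 of 3 mice were 10 of the 12, 83.3%, against 32% of all tested genes. By mean share of nuclei with a UMI after thinning, another cluster was first for Egr1, Nr4a1, Npas4, Nr4a3 and Bdnf, and cluster 0 for the rest. Egr1 was found in 36.6% of cluster 3 and 34.1% of cluster 0 nuclei, and Nr4a1 in 18.4% of cluster 12 and 17.1% of cluster 0 nuclei.

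Sequences before the starts of the called genes are shown because CREB binds the letters TGACG and their full palindrome TGACGTCA, which are known from promoters of immediate early genes. Of the 12 genes 9 matched an entry of the RefSeq promoter table (build GRCm38.p6), and Arc was without one. The 250 bases before the farthest upstream start are given 5′ to 3′ on the strand of the gene, with TGACG, read on both strands, in capitals. Fosb is at chr7:19310046-19310295 (minus strand), Junb at chr8:84978749-84978998 (minus strand) and Egr2 at chr10:67535249-67535498 (plus strand).
Fosb: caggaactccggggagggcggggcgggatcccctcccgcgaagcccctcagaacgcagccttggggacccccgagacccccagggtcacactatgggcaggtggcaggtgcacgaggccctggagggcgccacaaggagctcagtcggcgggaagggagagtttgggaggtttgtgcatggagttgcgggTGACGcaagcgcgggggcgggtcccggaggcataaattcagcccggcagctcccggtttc
Junb: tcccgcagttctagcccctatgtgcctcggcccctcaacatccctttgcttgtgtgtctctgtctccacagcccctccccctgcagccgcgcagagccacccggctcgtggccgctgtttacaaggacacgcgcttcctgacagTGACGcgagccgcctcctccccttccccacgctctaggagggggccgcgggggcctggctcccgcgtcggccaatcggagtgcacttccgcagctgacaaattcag
Egr2: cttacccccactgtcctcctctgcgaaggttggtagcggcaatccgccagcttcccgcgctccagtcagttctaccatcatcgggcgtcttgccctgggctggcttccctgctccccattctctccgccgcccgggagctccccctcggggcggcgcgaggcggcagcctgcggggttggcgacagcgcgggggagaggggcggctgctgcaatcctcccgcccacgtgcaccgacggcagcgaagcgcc

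Fosb held TGACG 55 bases and Junb 101 bases before the start, and this window of Egr2 did not hold these letters. Of the 9 listed genes with an entry, 7 held TGACG, against 17.8% of 27025 promoters of the same length and 27.2% of those of tested genes, and none held the full palindrome, against 1.6% of all and 2.79% of tested genes. The CArG box, the binding element of serum response factor, searched on both strands, was in none of the 9, against 1.41% of all and 1.16% of tested genes. Of the 95 higher genes with an entry 21.1% held TGACG. A match is a description of the letters and not of binding in these nuclei.

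Junb had 151.4, 156.0 and 190.1 CPM in mice 1, 2 and 3, above the highest other library at 116 CPM, and its difference in mouse 2 was at the threshold, 1.00. Fosb had 8.03, 15.03 and 22.92 CPM, Egr2 4.59, 8.49 and 11.95 CPM and Arc 39.82, 56.97 and 71.28 CPM, and for each the lowest cluster 0 library lay within the range of the other clusters. These levels were lowest in mouse 1 and highest in mouse 3. That order was not particular to cluster 0: the sum over the listed activity-induced genes had it in clusters 1, 3, 8 and 10 too. In clusters 6, 7 and 12 the sum was also lowest in mouse 1 but highest in mouse 2. Egr1, a zinc finger factor, had 147.5, 209.4 and 245.1 CPM and a difference of 1.31 ± 0.43, Egr3 one of 1.31 ± 0.53 and Npas4 one of 1.01 ± 0.19, and they missed the rule in at least 1 mouse.

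Fos had 27.31, 69.62 and 92.34 CPM and a difference of 0.75 ± 0.32. Bdnf (-0.06 ± 0.51) and Nr4a3 (0.12 ± 0.66) had no common direction over the mice. The 12 genes summed to 664.5, 896.4 and 1226 CPM in cluster 0, and the mean, 929 ± 282 CPM, was followed by cluster 3 (763 ± 87.2) and cluster 12 (712 ± 137). In mouse 1 cluster 3 was slightly above cluster 0, at 682.1 CPM. The count of higher genes in this group was 0 with a pseudocount of 5 CPM, 1 with all nuclei of the 7 clusters summed and 7 without clusters 10 and 12.

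**Figure D4:**
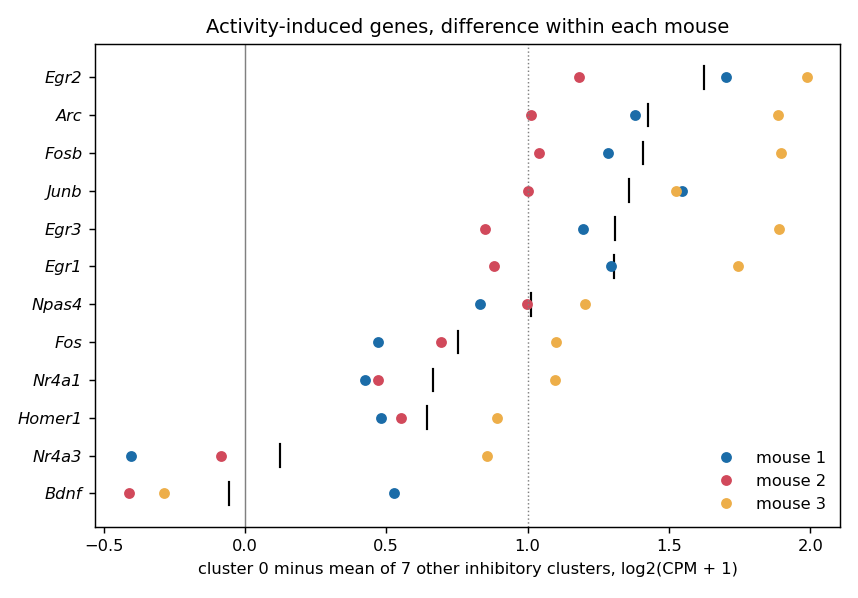
Log2(CPM + 1) of cluster 0 minus the mean of the 7 other inhibitory clusters (x axis) for 12 activity-induced genes (y axis), with 1 point per mouse and the mean as a bar; the dotted line is at 1. All 3 mice are above 0 for 10 genes, and Nr4a3 and Bdnf straddle 0.

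Nuclei within cluster 0 were not uniform. At 3000 UMIs per nucleus, 427 of 7055 genes with a mean of at least 0.05 UMIs in each mouse had a variance of at least 1.5 times the mean in all 3 mice. The 10 most variable were Malat1, Lrp1b, Galntl6, Ptprd, Dpp6, Pcdh9, Etl4, Calb2, Cntnap2 and Nrxn3, ranked by the lowest ratio of the 3 mice. After thinning, 8 of these had UMIs in at least 63.1% of the nuclei of each mouse, but Calb2 and Ptprd were found in fewer.

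Calb2 had a variance over mean of 13.1, 7.23 and 8.38 in mice 1, 2 and 3. Its UMIs were found in 21.9% to 32.4% of nuclei, and the 5% of nuclei with the most held between 52.3% and 71.0% of them. Ptprd, a receptor tyrosine phosphatase of synapses, was alike: the top 5% held between 40.2% and 63.5%, and its ratio was 25.0, 9.33 and 37.9. The label genes were more even, at 2.34 or more for Adamts19, 2.80 or more for Myo3b, 2.20 or more for Sema3c and 1.60 or more for Tacr1.

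Because Calb2 was so unevenly spread, nuclei with at least 5 UMIs of it after thinning were set beside those with 0, a split made after the values were seen and given with no test. There were 82, 361 and 48 such nuclei in mice 1, 2 and 3, 6.48%, 6.74% and 5.15% of the cluster, against 988, 3617 and 702 without. Their depth before thinning was not greater: the median was 6374, 7412 and 8798 UMIs, against 7118, 7744 and 9162 UMIs in the nuclei without.

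Secretagogin was among the genes that went with Calb2. Scgn was at 266 ± 53.1 CPM in them and 30.4 ± 3.61 CPM in nuclei without Calb2, a log2 difference of 3.08 ± 0.34. Synpr, a synaptic vesicle protein, was at 3258 ± 2.27 against 868 CPM, and Th at 145 ± 31.1 against 38.3 CPM. Other genes higher in them included Zic1, a zinc finger transcription factor (148 ± 20.3 against 18.6 ± 3.78 CPM), Rmst, a long non-coding RNA (195 ± 31.5 against 23.4 ± 2.32), Tmem200a (104 ± 30.2 against 10.4 ± 1.39) and Lgals1, a galectin (51.0 ± 9.04 against 3.51 ± 1.22). Of the label genes, Adamts19 (822 ± 104 against 399 CPM) and Myo3b (262 ± 6.59 against 109 CPM) were higher in these nuclei in 3 of 3 mice, while Sema3c (291 ± 24.2 against 300.1 CPM) and Tacr1 (70.7 ± 14.5 against 66.3 CPM) differed by less than the spread of the mice.

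Galntl6, a glycosyltransferase gene, was lower in the Calb2-rich nuclei, at 214 ± 94.3 against 1866 ± 298 CPM, a difference of -3.22 ± 0.62. Slit3, a secreted guidance protein (18.5 ± 13.4 against 308 ± 14.8), Fgf13, a regulator of sodium channels (92.7 ± 17.0 against 585 ± 14.5), Tnr, the matrix protein tenascin-R (41.6 ± 5.93 against 244 ± 22.4), and Etl4 (480 ± 124 against 2503 ± 461) were lower too. Of 7653 genes with at least 20 CPM in either set, 104 were past 1 and 121 past -1 in 3 of 3 mice, leaving out Calb2 itself. A gene could pass this filter through the set where it was high, and mouse 3 gave only 48 Calb2-rich nuclei. These counts are a description, and the part of sampling noise in them was not tested. The most variable genes of the cluster thus fell on both sides: Lrp1b was at 6100 ± 635 against 2662 CPM and Cntnap2 at 1001 ± 196 against 1719 CPM, while Pcdh9 had no common direction. Gad1 was at 1143 ± 237 against 1069 CPM.

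Over 7830 genes with a mean of at least 20 CPM, leaving out Calb2, the Calb2-rich nuclei correlated at 0.940 with cluster 0, 0.884 with cluster 3, 0.871 with cluster 1 and 0.816 with cluster 7, in which Calb2 was highest among the inhibitory clusters at 2446 CPM. The profile of cluster 0 contains these nuclei, so its r is not comparable with the others. The nuclei without Calb2 correlated with cluster 7 at 0.824. The Calb2-rich set has fewer nuclei, and its r was lower than that of the nuclei without Calb2 for every cluster. No doublet caller was run, and the part of doublets in these nuclei was not tested.

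**Figure D5:**
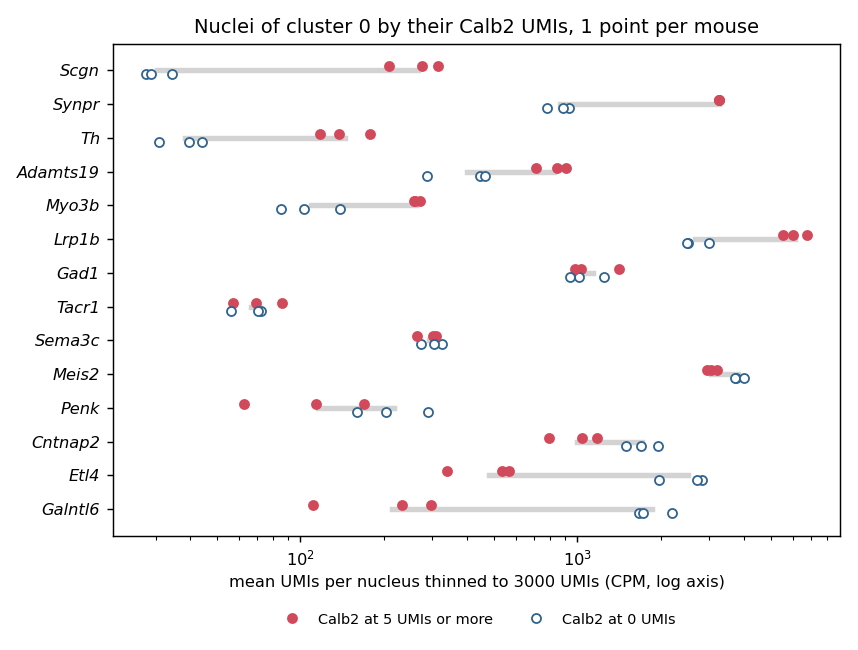
Mean UMIs as CPM (x axis, log scale) in cluster 0 nuclei thinned to 3000 UMIs, with 5 or more Calb2 UMIs (filled) or 0 (open), for 14 genes (y axis), 1 point per mouse and set; grey bars join the means. Scgn, Synpr, Th, Adamts19, Myo3b and Lrp1b lie to the right in the Calb2-rich nuclei of all 3 mice, Etl4 and Galntl6 to the left.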

How the data were processed

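Nuclei of 3 olfactory bulbs were profiled with 10x Chromium Single Cell 3′ v3 chemistry. The deposited values are raw UMI counts per gene and barcode, made by the authors with Cell Ranger (version 3.0.2 in the matrix header; builds mm10 and GRCm38 in the submitters' processing notes). The authors removed nuclei with few genes or a high percent of mitochondrial UMIs, a percentage the deposited annotation gives per nucleus, merged mice by canonical correlation analysis in Seurat and clustered them. Of 7718, 29829 and 6876 barcodes, 5845, 21105 and 4753 are annotated, and these were used, with no doublet caller.

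Counts were summed per mouse and cluster (24 libraries) and scaled to CPM. Tested genes had a mean of at least 2 CPM, and differences were taken within mice on log2(CPM + 1). The named genes are the 15 with the largest mean difference among higher genes with at least 20 CPM whose cluster 0 libraries all lay above the 21 others, the 10 most negative by the mirrored rule, the 5 largest each way against the 2 most alike clusters, the 10 most variable genes and the label genes; mitochondrial genes were left out. Other genes are named as members of the lists or where the text says so. The cluster, its label genes and the lists were chosen with earlier results of these data known. An exact paired test over 3 mice cannot go below p = 0.25. Libraries are paired by animal: deviations of cluster 0 and of the other clusters correlated at 0.535, 0.453 and 0.591 within mice 1, 2 and 3. edgeR 4.0.16 and DESeq2 1.42.0 (R 4.3.3) served as alternatives only. Scripts used Python 3.11.15 and were tested on simulated data. Promoter sequences are from RefSeq (GRCm38.p6), and gene positions from GENCODE on GRCm38. Some genes of the lists are not reported here.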

Additional observations from a re-analysis of the deposited data

How the results depend on the processing

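The count of 134 higher and 385 lower genes depended on the setting. It was 78 and 243 with a pseudocount of 5 CPM, and 38 and 592 with all nuclei of the 7 clusters summed per mouse. Nuclei thinned to 3000 UMIs gave 213 higher genes. Leaving out each mouse in turn gave 141 to 299 higher and 430 to 487 lower genes, the highest count without mouse 2. edgeR's quasi-likelihood test without the mouse as a replicate block called 334 higher and 740 lower genes, with the block 337 and 770, and DESeq2 with the block 359 and 775; these call genes by a mean fold and a p-value that the clustering on the same counts makes too small. The mean share of cluster 0 was 39.55% without clusters 10 and 12, its r with cluster 3 was 0.966 with a filter at 10 CPM, and 956 genes were variable at 5000 UMIs per nucleus. The cause of these shifts was not tested. The 15 higher and 10 lower named genes and the 4 label genes kept their direction under the alternatives that use the fold rule; the genes named against clusters 1 and 3 were not followed. Of the 134 higher genes edgeR called 134 with and without the block, and of the 385 lower genes 384 with it and 383 without; the genes of DESeq2 were not matched. Calls of 9 of these 29 genes were lost with summed nuclei, with mean differences from 0.82 to 1.17. Gm13031 and Junb (mean difference 1.30) were past 1 on average but in fewer than 3 mice with a pseudocount of 5 CPM, as were Gpc3 (1.29) and Fjx1 (1.04) without clusters 10 and 12, where Apc was just under 1 (0.999), and Amigo2 was not tested at a filter of 10 CPM. Depth limits genes of a few CPM, and free RNA limits what a UMI in a nucleus shows.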
